A study of Mus musculus with 19 samples.

Results

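Il4, Il13 and 8 genes that mark basophils or eosinophils were followed in blood leukocytes of mice treated with CAWS. The genes were taken by name, as every probe of the array that carries one of the 10 symbols: the cytokines Il4 and Il13, the basophil and mast cell genes Mcpt8, Cpa3, Fcer1a and Ms4a2, and the eosinophil genes Prg2, Epx, Ear2 and Ccr3. Of the 27745 gene names on the array, 9 of the 10 were found, on 10 probes, and Ear2 had no probe of its own. The question was whether the course of Il4 followed the basophil genes or the eosinophil genes.

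CAWS is the water-soluble fraction of Candida albicans, a complex of mannoprotein and beta-glucan that causes arteritis of the aortic root and coronary arteries in mice. Male DBA/2 mice, which develop severe vasculitis, and male B6 mice, which develop a milder form, were 5 to 14 weeks old and carried no transgene. All samples are labelled as taken after CAWS, which was injected intraperitoneally on 5 consecutive days at a dose that the labels do not give, so that no untreated group was analysed here, and 0 w is the time right after the last injection. RNA of leukocytes captured from whole blood of single mice was measured at 5 times (0 w, then 2 w and 4 w, and late at 8 w and 9 w) on single-color Agilent whole mouse genome arrays, in 18 samples of 10 groups. Each group held 2 mice, except the B6 groups of 2 w and 9 w with 1 mouse each, and the later weeks held only mice that had survived until then.

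Interleukin 4 and interleukin 13 are the signature cytokines of type 2 immunity. Basophils, type 2 helper T cells and natural killer T cells are among the known sources of Il4 transcripts in blood, and this list is not complete. Eosinophils carry toxic granule proteins and answer to type 2 cytokines. Basophils and mast cells share the high-affinity IgE receptor, and the protease Mcpt8 separates mouse basophils from mast cells. Both kinds of granulocyte are rare in blood, so that their transcripts give dim signals in RNA from all leukocytes. In such bulk RNA, fewer cells of a type and less RNA per cell cannot be told apart.

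GATA factors are known to act in the basophil, mast cell and eosinophil lineages, and the promoter windows of several of these genes are shown for that reason. Promoter windows were taken from RefSeq on GRCm38.p6, as the 250 bases before the annotated start, in the direction of the gene, and 9 of the 10 genes had one. Capitals mark the letters AGATAA or TGATAA on either strand, which overlap no other motif searched. These letters were in 5452 of 32851 windows of all genes, or 16.6%, and in 5 of the 9 genes here. Fcer1a (chr1:173227230-173227479), Cpa3 (chr3:20242182-20242431), Il13 (chr11:53634703-53634952), Ccr3 (chr9:124021721-124021970) and Ms4a2 (chr19:11623720-11623969) held them, and Ccr3 lies on the plus strand while the other 4 lie on the minus strand. Mcpt8 (chr14:56085198-56085447, minus strand), Il4, Epx and Ear2 did not hold these letters in their windows. Il4 had 2 annotated starts, and its outer window (chr11:53618666-53618915, minus strand) is printed here with those of the basophil genes whose course is compared with it.
Il4: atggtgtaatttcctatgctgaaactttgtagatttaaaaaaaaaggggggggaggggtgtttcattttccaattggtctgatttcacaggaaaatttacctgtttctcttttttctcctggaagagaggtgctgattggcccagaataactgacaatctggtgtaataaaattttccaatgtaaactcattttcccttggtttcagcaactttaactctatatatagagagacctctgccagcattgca
Cpa3: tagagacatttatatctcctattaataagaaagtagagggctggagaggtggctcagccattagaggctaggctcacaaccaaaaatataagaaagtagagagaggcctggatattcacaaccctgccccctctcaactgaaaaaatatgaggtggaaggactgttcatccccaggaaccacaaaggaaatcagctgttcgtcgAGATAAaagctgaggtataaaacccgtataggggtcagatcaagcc
Fcer1a: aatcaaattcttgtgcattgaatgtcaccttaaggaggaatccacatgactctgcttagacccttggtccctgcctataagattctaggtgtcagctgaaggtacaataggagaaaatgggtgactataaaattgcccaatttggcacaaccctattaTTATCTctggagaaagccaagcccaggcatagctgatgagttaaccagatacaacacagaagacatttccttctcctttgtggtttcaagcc
Mcpt8: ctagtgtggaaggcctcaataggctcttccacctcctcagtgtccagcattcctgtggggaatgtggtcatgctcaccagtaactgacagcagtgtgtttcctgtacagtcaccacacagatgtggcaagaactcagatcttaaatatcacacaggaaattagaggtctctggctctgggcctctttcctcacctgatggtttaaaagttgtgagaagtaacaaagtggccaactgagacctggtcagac
The motif lies 46 bases before the start in Cpa3 and 92 bases before it in Fcer1a, where the window holds it as its reverse complement. A match of letters is a description of the window and not a measured binding site.

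Values below are scaled signals, that is, the background-subtracted processed signal of a probe divided by the 75th percentile of its array and put back on the signal scale. A probe counts as measured on an array where the software called it well above background, and the lowest such signal of an array lay between 6.90 and 24.4 on this scale. Changes are differences of mean log2 signal with their standard error (SE), and adjusted p is from limma with Benjamini-Hochberg adjustment over the 22936 probes measured in at least 2 of the 18 samples. Of the 10 genes, 8 passed this filter. Epx was measured on none of the 19 arrays, Prg2 passed through DBA/2 mice at 8 w and 9 w alone, and Mcpt8 was measured in all 10 DBA/2 samples but in only 1 of the 8 B6 samples.

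Before the members are described, some arrays have to be set apart. Transcripts of hepatocytes, the liver's own cells, were strong in the B6 groups of 0 w and 8 w: the scaled signals of 7 such genes summed to 16314 to 16769 in the first of these groups and to 8452 to 8933 in the second, against 184 to 551 in the other 8 groups. Every comparison within B6 mice uses 1 of these groups at least, as do the strain difference at 0 w and the difference between the strains in their changes. Their part in those results was not tested. The comparisons within DBA/2 mice and of the strains at 4 w take no mean from them. One hepatocyte gene did move with Il4 in DBA/2 mice, Fabp1, a fatty acid carrier of liver and gut, with a mean scaled signal of 4.86 at 0 w, then 64.6 at 4 w and 1.93 at 8 w, against 3.22 in B6 mice at 4 w. Alb, the gene of serum albumin, was at 34.9, then 28.1 and finally 2.26 in the same DBA/2 weeks and at 3.59 in B6 mice at 4 w. Means under 6.90 lie below the lowest signal called well above background on any array. The size of a difference from such a mean is therefore not measured. The part of these transcripts in the 4 w results was not tested. The arrays lay on 6 slides scanned on 2 days, replicate 1 on the first and replicate 2 on the second, and the DBA/2 mice of a replicate shared a slide from 0 w to 8 w. DBA/2 mice at 9 w and all B6 mice lay on other slides. In the comparisons of the strains at 1 week, and of DBA/2 mice between 9 w and 0 w, group and slide therefore cannot be told apart with the slide as a fixed block. No slide held both strains at 0 w or both at 4 w, so a random block does not separate strain from slide either. It called the same 4 members at 0 w and 5 at 4 w as the fit without it. In the fit without it 32.6% and 32.1% of all probes passed, and no share is given for the random block. These members include Mcpt8, which passed the filter through DBA/2 samples and at 0 w did not pass without any filter (limma, adjusted p = 0.0736).

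Il4 was read by a single probe (chr11:53455997-53456056 on mm8), which the array carries on 10 spots. In DBA/2 mice its scaled signal was 23.7 and 21.6 at 0 w, 19.5 and 20.0 at 2 w, 62.8 and 59.2 at 4 w, 34.0 and 32.2 at 8 w, and 29.1 and 27.9 at 9 w. The 2 samples of 4 w stood above all other 16 samples of the study, and within DBA/2 mice no week overlapped with another. Il4 rose by 1.43 (SE 0.10) on the log2 scale from 0 w to 4 w, or 2.70-fold (limma, adjusted p = 2.01e-05). It fell from 4 w to 8 w (log2 change -0.88, adjusted p = 0.00147) but at 8 w was still above 0 w (0.55, SE 0.10, adjusted p = 0.00369). At 9 w it was 0.33 (SE 0.10) above 0 w, with an adjusted p of 0.0359. At 2 w the change of -0.20 did not pass (adjusted p = 0.257). On the slide of replicate 1 the log2 change from 0 w to 4 w was 1.41, and on that of replicate 2 it was 1.46.

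The 10 spots give an error within the array. Over all arrays 180 of 190 spots were used, the rest being marked as outliers by the software, and the SD of log2 signal over the spots of an array ran from 0.08 to 0.38 with a median of 0.16. Before scaling, the spots of DBA/2 mice at 4 w spanned 74.1 to 93.4 in replicate 1 and 68.0 to 81.6 in replicate 2. The highest spot in use on any other array read 44.1, in DBA/2 mice at 8 w, so that no spot of 4 w overlapped with any spot in use elsewhere.

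**Figure D1:**
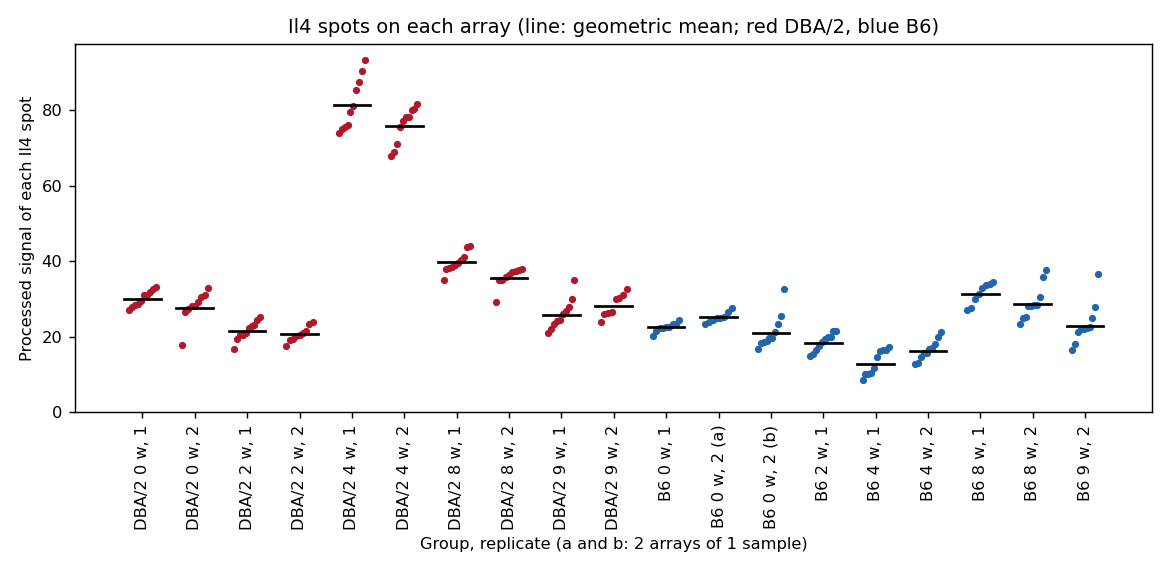
Processed signal of each Il4 spot in use (y axis, linear, before scaling between arrays) on the 19 arrays, in the order of group and replicate on the x axis, with DBA/2 in red, B6 in blue and a line at the geometric mean of each array. The spots of the 2 DBA/2 arrays at 4 w lie between 68.0 and 93.4, above all other spots in use.

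In B6 mice the course of Il4 was another one. Its scaled signal was 30.7 and 32.3 at 0 w, 28.1 at 2 w, 17.7 and 21.5 at 4 w, 20.9 and 20.1 at 8 w and 23.1 at 9 w, where 17.7 and 20.1 were not called well above background. The 0 w samples were the highest, and both 4 w samples lay below every sample of 0 w and 2 w. Against 0 w, Il4 fell by 0.69 (SE 0.10, limma adjusted p = 0.00206) at 4 w and by 0.62 (SE 0.10, adjusted p = 0.00221) at 8 w. At 2 w and 9 w the changes were -0.16 and -0.45, and neither passed (adjusted p = 0.505 and 0.055). At 4 w Il4 was 3.12-fold higher in DBA/2 than in B6 mice (log2 difference 1.64, SE 0.10, adjusted p = 2.41e-06). At 0 w it was lower in DBA/2 mice (-0.48, SE 0.10, adjusted p = 0.00553).

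Il13, which lies next to Il4 and is often made by the same cells, did not share this course (probe at chr11:53475485-53475544 on mm8). Among DBA/2 mice its scaled signal was 27.4 and 60.5 at 0 w, 33.6 and 78.3 at 2 w, 25.1 and 54.3 at 4 w, 21.1 and 64.3 at 8 w, and 31.1 and 29.9 at 9 w. From 0 w to 8 w the higher value of each pair was that of replicate 2, whose 4 samples shared a slide, and at 9 w, on other slides, the 2 samples were close. In B6 mice it ran from 12.6 to 29.7. With no slide term, Il13 passed in no comparison by limma, nor at an unadjusted p under 0.05, and the 4 w change in DBA/2 mice was -0.14 with an SE of 0.60. Within the slides of replicate 1 and replicate 2 that change was -0.13 and -0.16. With the slide as a fixed block the Il13 change in B6 mice was -1.23 at 8 w and -0.75 over both weeks, 4 w and 8 w, on average. Replicate 1 of B6 mice at 8 w was alone on its slide, so that the 8 w part of both values rests on 1 sample.

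Among the basophil and mast cell genes, Cpa3 had the highest Pearson's r with Il4 over the DBA/2 samples, though not the highest rank correlation, nor the highest r without the 4 w samples. Cpa3 encodes carboxypeptidase A3, a granule protease of mast cells that mouse basophils also express (probe at chr3:20407825-20407884 on mm8). In DBA/2 mice the scaled signal was 57.0 and 58.4 at 0 w, 50.8 and 48.2 at 2 w, 95.7 and 91.9 at 4 w, 77.3 and 69.1 at 8 w, and 49.9 and 51.7 at 9 w. The 4 w samples were the highest and those of 8 w the next, with no overlap between these weeks or with the others. Cpa3 rose by 0.70 (SE 0.09, limma adjusted p = 0.0011) at 4 w and by 0.34 (SE 0.09, adjusted p = 0.0264) at 8 w, and it fell between these weeks (-0.36, adjusted p = 0.0461). The last 2 of these calls were lost when DBA/2 mice were fitted alone (adjusted p = 0.0507 and 0.102).

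In B6 mice Cpa3 was dim, with scaled signals of 21.9 and 18.8 at 0 w, 15.9 at 2 w, 14.1 and 13.4 at 4 w, 16.4 and 16.0 at 8 w and 25.2 at 9 w, and it was not well above background in both 4 w samples and 1 sample of 8 w. No B6 sample reached the lowest DBA/2 sample. At 4 w Cpa3 was at least 6.73-fold higher in DBA/2 than in B6 mice (adjusted p = 7.36e-08), where the bound sets the DBA/2 mean against the lowest signal that was called well above background on each B6 array, or the probe's own where that was higher. The strains already differed at 0 w (log2 difference 1.51, SE 0.09, adjusted p = 3.01e-06). Within B6 mice the 0 w level was at least 1.46-fold that of 4 w (adjusted p = 0.00394).

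Fcer1a encodes the IgE-binding chain of the high-affinity IgE receptor of basophils and mast cells (probe at chr1:175059409-175059468 on mm8). Its scaled signal in DBA/2 mice was 45.8 and 46.6 at 0 w, 49.6 and 45.8 at 2 w, 74.7 and 68.9 at 4 w, 67.6 and 58.5 at 8 w, and 47.7 and 62.3 at 9 w. The 4 w samples were again the highest, while 8 w and 9 w overlapped. Fcer1a rose by 0.63 (SE 0.17, limma adjusted p = 0.0322) at 4 w, and the changes of 0.44 at 8 w and 0.24 at 9 w did not pass (adjusted p = 0.086 and 0.336). The fall of 0.19 from 4 w to 8 w did not pass either (adjusted p = 0.613).

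In B6 mice Fcer1a ran from 22.8 to 45.9 with a median of 29.5, and the highest value was that of the single 9 w sample. Against 0 w that 1 mouse was 0.81 higher (SE 0.20, limma adjusted p = 0.0371), where the spread is that of the other groups, and with normexp the difference was -0.20. The strains differed in Fcer1a at 0 w (0.82, SE 0.17, adjusted p = 0.00434) and at 4 w (1.12, SE 0.17, adjusted p = 6.98e-04), DBA/2 mice being higher.

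Mcpt8, the protease of mouse basophils, had another course than Il4 in that its level at 8 w was not below that of 4 w (probe between chr14:55037534 and chr14:55037908 on mm8). The scaled signal in DBA/2 mice was 43.7 and 35.1 at 0 w, 45.2 and 35.3 at 2 w, 93.8 and 86.2 at 4 w, 120.1 and 99.0 at 8 w, and 48.8 and 52.3 at 9 w. Both later weeks stood clear of 0 w, 2 w and 9 w, and 8 w stood above 4 w in each pair of samples, by a mean of 0.28 (SE 0.59) that did not pass (adjusted p = 0.88). The changes from 0 w were 1.20 at 4 w and 1.48 at 8 w. With all 10 groups sharing 1 spread these did not pass by limma (SE 0.59, adjusted p = 0.229 and 0.103). The pair that stood farthest apart was B6 mice at 0 w, whose scaled signals were 24.9, well above background, and 4.68, below it. Without either sample of this pair the 4 w and 8 w changes passed (adjusted p = 0.00475 and 8.60e-04), and so they did with DBA/2 mice fitted alone (0.0111 and 0.00301). On the slide of replicate 1 the changes were 1.10 and 1.46, and on that of replicate 2 they were 1.29 and 1.49.

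The other 6 B6 samples of Mcpt8 read 3.31 to 10.8 in scaled signal, all below background. At 4 w the gene was at least 6.53-fold higher in DBA/2 than in B6 mice. Mcpt8 passed the filter through DBA/2 mice, so the strain difference is tested here without any filter, over all 41174 probes, where it passed at 4 w (limma, adjusted p = 9.80e-04) but not at 0 w (adjusted p = 0.0736). The bounds at 2 w, 8 w and 9 w, which no test covers, were at least 3.00-fold, 9.80-fold and 3.40-fold.

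Ms4a2 encodes the beta chain of the same IgE receptor (probe at chr19:11684333-11684392 on mm8) and did not move with Fcer1a. Its scaled signal in DBA/2 mice ran from 42.3 to 70.5 with a median of 51.4, with 56.9 and 62.1 at 4 w against 44.9 and 58.5 at 0 w. These ranges overlapped, and the change of 0.22 (SE 0.27) at 4 w did not pass (limma, adjusted p = 0.717). The 1 comparison it passed was that of B6 mice at 8 w with 0 w (-0.91, SE 0.27, adjusted p = 0.0406), where the scaled signal was 30.3 and 23.8 after 62.5 and 40.8.

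**Figure D2:**
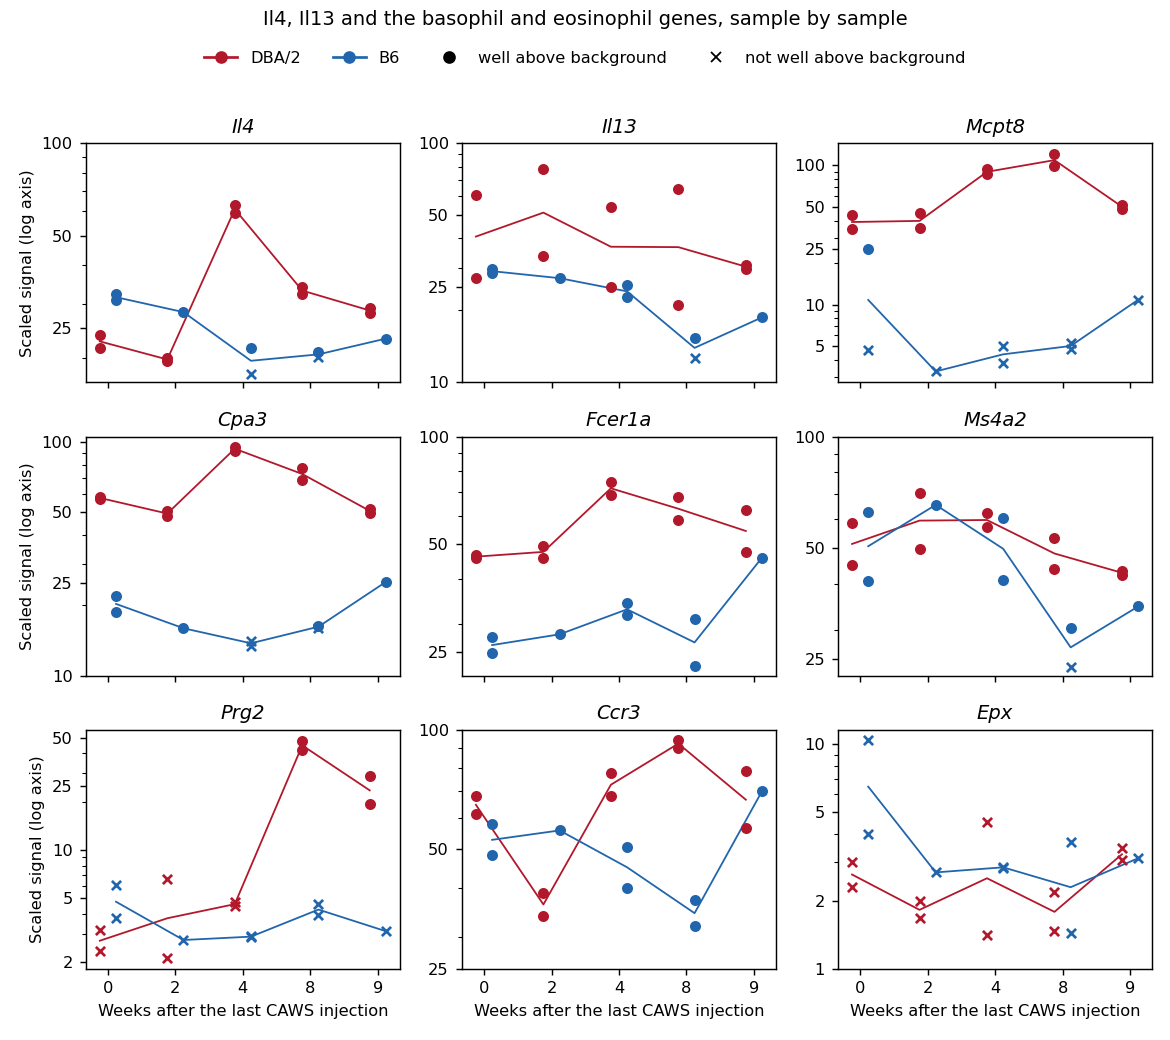
Scaled signal of the 9 genes with a probe (log axis) against weeks after the last CAWS injection, 1 point per sample, with DBA/2 in red, B6 in blue, a line through the group means and crosses where the probe was not well above background (the weeks are evenly spaced). Il4, Cpa3 and Fcer1a are highest in DBA/2 mice at 4 w, Mcpt8 and Ccr3 at 8 w, and Prg2 leaves the background at 8 w and 9 w only.

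Of the eosinophil genes, Prg2 encodes the major basic protein of the eosinophil granule (probe at chr2:84783481-84783540 on mm8). In DBA/2 mice it read 2.34 and 3.18 at 0 w, 6.65 and 2.13 at 2 w and 4.46 and 4.76 at 4 w in scaled signal, all below background, and then 47.8 and 41.9 at 8 w and 28.8 and 19.2 at 9 w, all well above it. When Il4 was at its highest, Prg2 was thus not measurable, and it appeared when Il4 had fallen back. Its level at 8 w was at least 3.48-fold that of 0 w and at least 3.63-fold that of 4 w, and at 9 w it was at least 1.83-fold that of 0 w. Because Prg2 passed the filter through 8 w and 9 w alone, these differences are tested without any filter, over all 41174 probes, and each passed (limma, adjusted p = 6.37e-04, 0.0157 and 0.00322). In B6 mice Prg2 was below background in all 8 samples, between 2.76 and 6.07, so that DBA/2 mice were at least 4.02-fold higher at 8 w and 1.58-fold higher at 9 w, with no test.

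Epx, the peroxidase of eosinophils (probe at chr11:87680981-87681040 on mm8), read 1.42 to 10.5 in scaled signal and was below background on all 19 arrays, so that it gives no course. Ccr3 encodes the eotaxin receptor, which eosinophils carry and basophils share (main probe at chr9:123879291-123879350 on mm8). Its scaled signal in DBA/2 mice was 68.2 and 61.4 at 0 w, 38.8 and 34.0 at 2 w, 77.9 and 68.0 at 4 w, 94.5 and 90.3 at 8 w, and 78.7 and 56.6 at 9 w. The 2 w samples were the lowest and the 8 w samples the highest, and 4 w overlapped with 0 w and with 9 w.

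Ccr3 fell at 2 w (-0.83, SE 0.18, limma adjusted p = 0.0145). At 4 w, the week of the Il4 peak, its change was 0.17 (SE 0.18, adjusted p = 0.658), and at 8 w it was 0.51 (adjusted p = 0.0737). With the slide as a fixed or a random block, the rise of Ccr3 over the mean of 4 w and 8 w in DBA/2 mice did pass. In B6 mice it ran from 32.0 to 70.1 and fell at 8 w (-0.61, SE 0.18, adjusted p = 0.041). At 4 w DBA/2 mice were higher than B6 mice (0.69, SE 0.18, adjusted p = 0.0173). A second Ccr3 probe (chr9:123878142-123878201) was well above background in 1 of 18 samples, B6 mice at 4 w with 28.5, and gives no course.

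Ear2, an eosinophil-associated ribonuclease, had no probe under its own name, but the probes named Ear10 and Ear3 list its accession among several targets, and the members of this near-identical family cannot be told apart by them. The Ear10 probe read 186 and 189 in DBA/2 mice at 0 w, 88.5 and 82.5 at 2 w, 95.6 and 109 at 4 w, 175 and 188 at 8 w and 115 and 120.1 at 9 w in scaled signal. It fell by 1.14 (SE 0.13, limma adjusted p = 6.87e-04) at 2 w and by 0.88 (SE 0.13, adjusted p = 0.00236) at 4 w, and was 0.83 higher at 8 w than at 4 w (adjusted p = 0.00669). At 8 w it differed from 0 w by -0.05 (adjusted p = 0.846). The Ear3 probe fell likewise by 1.19 at 2 w and by 1.06 at 4 w (adjusted p = 0.00507 and 0.00868). When Il4 was at its highest, the signal of this ribonuclease family was thus below its level at 0 w and at 8 w.

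**Figure D3:**
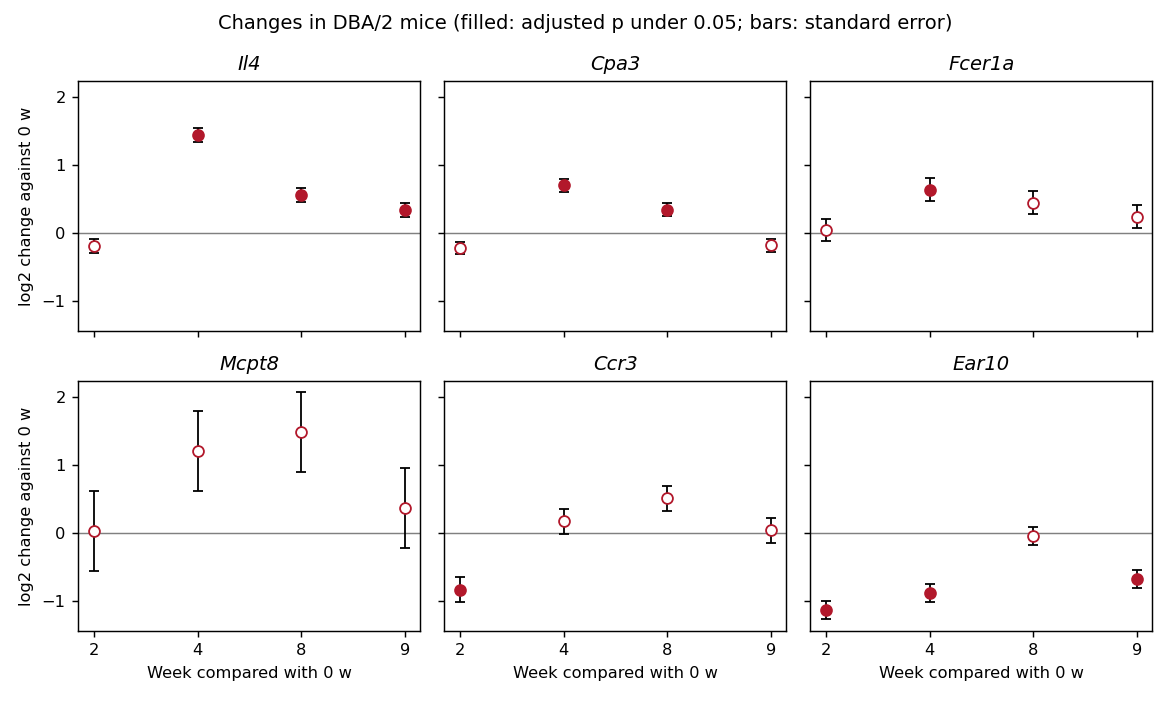
Log2 change against 0 w (y axis) in DBA/2 mice over the 4 later times (x axis) for 5 members and the Ear10 probe, with bars of 1 standard error and filled points where the adjusted p of limma was under 0.05. Il4, Cpa3 and Fcer1a pass at 4 w with changes of 1.43, 0.70 and 0.63, whereas Ccr3 passes at 2 w alone and the Ear10 probe passes below 0 in every week but 8 w.

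Counts over the members leave out Mcpt8 and Prg2, which passed the filter through the group where they were high, and Epx and Ear2. Of the other 6, 3 passed in DBA/2 mice at 4 w (Il4, Cpa3 and Fcer1a) and each rose, where 14.8% of all probes tested passed. Their median log2 change was 0.43 against -0.09 over all probes. At 8 w Il4 and Cpa3 rose, where 23.9% of all probes passed, and the medians were 0.39 and -0.18. At 2 w 1 of the 6 passed, Ccr3, against 15.7% of all probes, and at 9 w 1 passed, Il4, against 27.6%. From 4 w to 8 w Il4 and Cpa3 fell, 2 of 6, where 8.35% of all probes passed.

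Over the mean of 4 w and 8 w, 3 of the 6 rose in DBA/2 mice (Il4, Cpa3 and Fcer1a), with 22.8% of all probes passing. In B6 mice 2 fell over these weeks, Il4 and Cpa3, with 15.0% passing. Single weeks of B6 mice gave 2 falls at 4 w (15.6% of all probes), 4 falls at 8 w (21.2%) and 1 rise at 9 w, in 1 mouse (9.3%). At 2 w limma called none of the 6, with Cpa3 at an unadjusted p under 0.05 and 13.0% of all probes passing.

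Between the strains, 3 of the 6 differed at 0 w, where Cpa3 and Fcer1a were higher and Il4 lower in DBA/2 mice and 32.6% of all probes passed. At 4 w 4 differed, Il4, Cpa3, Fcer1a and Ccr3, each higher in DBA/2 mice, and 32.1% of all probes passed. The medians at 4 w were 0.91 over the members and 0.05 over all probes. These calls at 4 w stood when the B6 samples of 0 w and 8 w were taken out of the fit. The DBA/2 change over 4 w and 8 w exceeded that of B6 mice in Il4 and Cpa3, with 13.2% of all probes passing, and this comparison rests on the B6 samples with hepatocyte transcripts.

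The change of Il4 with the other genes was then measured sample by sample within DBA/2 mice, because the strains form separate clusters in Mcpt8 and Cpa3. Across the 10 DBA/2 samples, Pearson's r of the normalized log2 signals with Il4 was 0.91 for Cpa3 and 0.87 for Fcer1a (permutation test with 100000 resamples, two-sided, p = 8.30e-04 and 6.10e-04, both 0.00249 after adjustment over the 6 genes compared). Spearman's rho was 0.81 and 0.82 (permutation p = 0.00773 and 0.00586, both 0.0155 adjusted). For Mcpt8, r was 0.77 and rho 0.81 (permutation p = 0.00842 and 0.00705, adjusted p = 0.0168 and 0.0155). For Ccr3, r was 0.58 (permutation p = 0.0676, adjusted p = 0.101) and rho 0.71 (permutation p = 0.0265, adjusted p = 0.0398), so that the rank order but not the linear relation passed. Ms4a2 and Il13 gave r of 0.12 and -0.23 and rho of -0.04 and -0.44, none of which passed. With normexp, however, r in DBA/2 mice was 0.87 for Ms4a2 and 0.67 for Il13 (permutation test, both adjusted p = 0.0814), beside 0.99 for Cpa3, 0.98 for Fcer1a, 0.89 for Ccr3 and 0.87 for Mcpt8, so that the distance of Ms4a2 and Il13 from the others depends on the background correction. These 10 samples are 5 pairs of the same week, and they share the array scaling.

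The 4 w samples were the 2 farthest from the median of Il4. Without them, r over the other 8 samples was 0.68 for Cpa3 and 0.76 for Fcer1a (exact permutation test, adjusted p = 0.0976 and 0.0835), so that these relations rest in part on the 4 w samples. For Mcpt8 and Ccr3 it was 0.86 and 0.88 (exact permutation test, both adjusted p = 0.0117). When the slide means were taken out of the 8 samples of 0 w to 8 w, r was 0.98 for Cpa3, 0.94 for Fcer1a, 0.78 for Mcpt8 and 0.60 for Ccr3, and the first 2 passed (exact permutation test, adjusted p = 0.00179, 0.00558, 0.0562 and 0.121). All these tests permute the samples as independent, though they are pairs of the same weeks. Over the differences between the 2 replicates of 8 groups of both strains, r was -0.35 for Cpa3, -0.11 for Fcer1a, -0.32 for Mcpt8 and 0.63 for Ccr3. None of these passed (permutation test, adjusted p = 0.498, 0.755, 0.498 and 0.278). Each slide or scan day alone held under 6 DBA/2 samples, too few for a value.

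**Figure D4:**
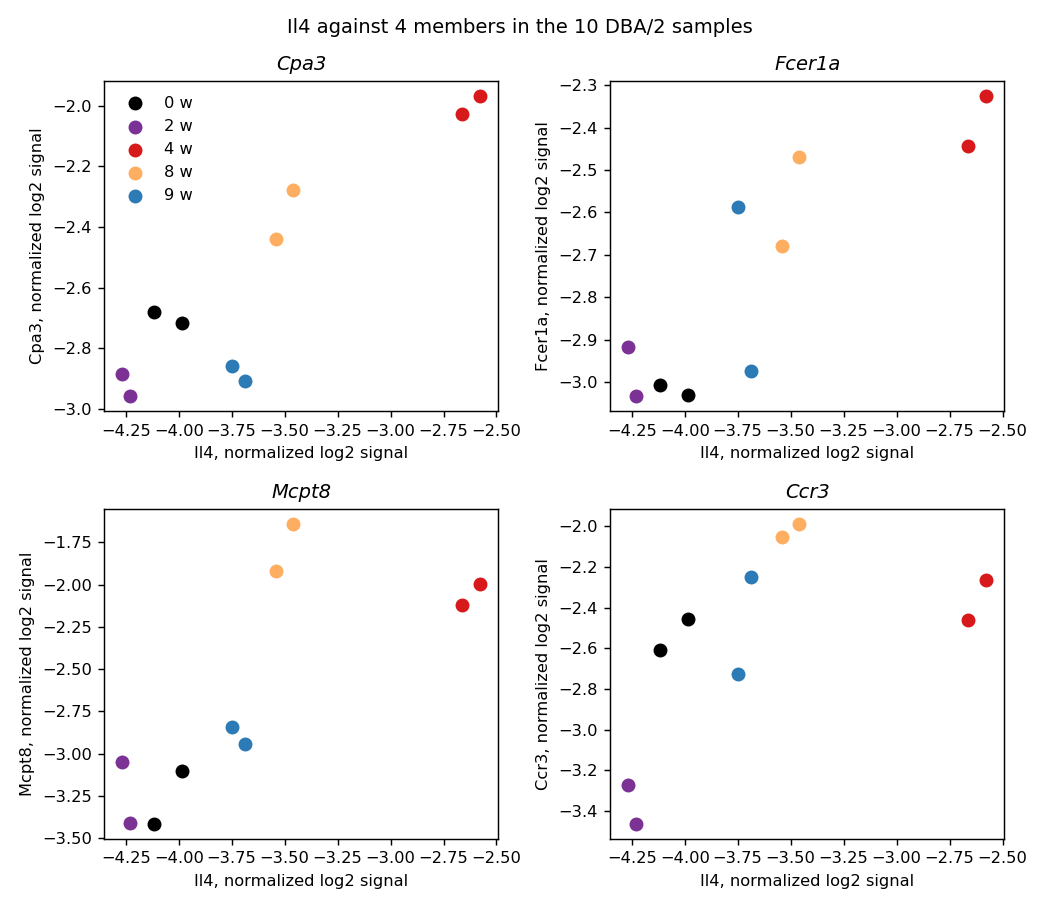
Normalized log2 signal of Cpa3, Fcer1a, Mcpt8 and Ccr3 (y axes) against that of Il4 (x axis) in the 10 DBA/2 samples, 1 point per sample, coloured by week. Cpa3 and Fcer1a are highest in the 4 w samples like Il4 (r 0.91 and 0.87), whereas Mcpt8 and Ccr3 are highest at 8 w.

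Many other genes moved with Il4 as closely. Of 13032 genes measured in at least 9 samples, 38 had a higher r with Il4 in DBA/2 mice than Cpa3 did, 67 than Fcer1a, 227 than Mcpt8 and 961 than Ccr3. Over all 18 samples the genes most like Il4 were the chemokine receptor Cxcr6 of effector T and natural killer T cells (r 0.88), the endoplasmic reticulum chaperone Hspa5 (0.86), the death ligand Fasl of cytotoxic lymphocytes (0.83), the endothelin receptor Ednrb (0.83) and the adaptor Dok2 (0.83). No basophil or eosinophil gene was among these 5. The gene most like Mcpt8 over the same samples was Cpa3 (r 0.96), followed by Tgoln2 (0.94), EG668139 (0.94), NAP046281-1 (0.92) and Ifi202b (0.92), and these values take in the difference between the strains. In B6 mice alone (8 samples) r with Il4 was 0.66 for Il13, 0.55 for Ccr3, 0.37 for Ms4a2 and -0.32 for Fcer1a, with rho of 0.81, 0.67, 0.38 and -0.31, and none passed after adjustment over these 4 (exact permutation test, adjusted p = 0.293, 0.318, 0.445 and 0.445 for r). Without the 2 B6 samples of 0 w, which were farthest from the median of Il4, these r were 0.40, 0.59, 0.28 and 0.01.

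Other genes of basophils gave a mixed course. Of 7 such genes tested, 2 rose in DBA/2 mice at 4 w (14.8% of all probes passed there, in either direction): Hdc, the histidine decarboxylase that makes histamine and is also expressed by neutrophils, by 2.31, and Gata2, a transcription factor of basophils and mast cells, by 0.40. Gata2 then was 0.55 below 0 w at 8 w, which also passed, and Hdc was 2.94 above it. In B6 mice at 4 w, where Il4 fell, 3 of the 7 rose, beside 15.6% of all probes. Their mean scaled signals of Hdc and Gata2 were 221 and 151 at 0 w and 471 and 201 at 4 w. Over the mean of 4 w and 8 w both rose in B6 mice, by 1.75 and 0.26 (limma, adjusted p = 4.40e-06 and 0.024). The basophil receptor Cd200r3 had a mean scaled signal in DBA/2 mice of 27.7 at 0 w, which was 45.7 at 4 w and then 34.9 at 8 w, and 7.40 to 14.5 in the B6 groups, and its 4 w change of 0.73 did not pass. The basophil protease Prss34 changed by -0.06 at 4 w in DBA/2 mice and did not pass. Of mast cell genes, Kit, Tpsab1, Mcpt2, Mcpt9 and Mrgprb1 were below background in all 18 samples, while the chymases Cma1 and Mcpt4 were well above it in all 18. Their mean scaled signals in DBA/2 mice were 309 and 48.7 at 0 w and 258 and 47.3 at 4 w, changes that did not pass (limma, adjusted p = 0.759 and 0.992). The summed signal of 9 mast cell genes was 322 to 453 in DBA/2 mice at 0 w and 255 to 407 at 4 w.

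Of 10 other eosinophil genes tested, 2 rose and 4 fell at 4 w in DBA/2 mice, and 2 rose at 8 w, beside 14.8% and 23.9% of all probes that passed. The 4 that fell were ribonucleases of the Ear family, whose probes may read the same transcripts. In B6 mice at 4 w, where Il4 fell, 0 of the 10 rose and 6 fell, beside 15.6% of all probes. Siglecf, a surface lectin of eosinophils, rose by 1.19 at 8 w, with a mean scaled signal of 22.4 at 0 w, then 34.7 at 4 w and finally 51.1 at 8 w. The 2 that rose at 4 w in DBA/2 mice, Alox15 and Ltc4s, make lipid mediators in eosinophils and in macrophages. In mean signal both were higher at 4 w than at 0 w or 8 w, like Il4, while Alox15 was again at 43.1 at 9 w. Their mean scaled signals in DBA/2 mice were 7.15 and 5.60 at 0 w, 39.5 and 45.6 at 4 w and 22.3 and 22.3 at 8 w, and they were measured in 11 and 10 of the 18 samples.

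Of 13 other cytokines and receptors of type 2 immunity tested, 6 rose in DBA/2 mice over the mean of 4 w and 8 w, where 22.8% of all probes passed. The largest rises were those of Il13ra1, a receptor chain for both cytokines, by 2.77 (SE 0.11), of Csf2rb1, a beta chain of receptors of the interleukin 3 and interleukin 5 family, by 1.57, and of Fcer1g, the gamma chain of the IgE receptor that many myeloid cells express, by 1.18. In B6 mice, where Il4 fell, the same genes rose by 1.79, 1.21 and 0.70 (limma, adjusted p = 8.40e-06, 8.56e-06 and 2.80e-04). There 5 of the 13 rose and 3 fell, with 15.0% of all probes passing. A second probe that the array also names Csf2rb1 is counted among the 13 as Csf2rb. Over the same weeks it changed by -0.07 in DBA/2 mice and by -0.33 in B6 mice, and neither passed (limma, adjusted p = 0.848 and 0.28). Il5, Il3 and Il9 were below background in all 18 samples. Il4ra, the receptor chain of Il4, changed by 0.06 in DBA/2 mice and did not pass, with mean scaled signals of 359.5 at 0 w and 377 at 4 w.

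Of 7 genes known to respond to Il4 in macrophages and B cells, 4 rose and 1 fell in DBA/2 mice over these weeks, beside the same 22.8%. The mean scaled signal of Retnla in DBA/2 mice was 72.2 at 0 w and then 357 and 353 at 4 w and 8 w, while in B6 mice it was 154 and 273 in the first 2 times, 3.49 at 4 w, and later 129 and 51.6. Its mean in DBA/2 mice at 2 w was 63.2, so that B6 mice had the higher mean up to 2 w and DBA/2 mice from 4 w on. Arg1 and Ccl24 rose from 2.90 and 4.46 at 0 w to 11.8 and 22.9 at 4 w, and were measured in 7 and 8 of the 18 samples. In the 2 B6 groups with hepatocyte transcripts, Arg1 read 68.1 and 53.3.

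Markers of more abundant leukocytes moved in the same weeks as Il4 and the granulocyte genes. In DBA/2 mice at 4 w, 7 of 8 neutrophil genes and 6 of 7 monocyte genes rose, 3 of 4 NK cell genes rose, and 3 of 9 T cell genes and 3 of 4 B cell genes fell. Of all probes, 14.8% passed there. In B6 mice at 4 w, where Il4 fell, 6 neutrophil genes rose too, 1 monocyte gene rose and 4 fell, and 4 NK cell, 4 T cell and 2 B cell genes fell. Of all probes, 15.6% passed in that comparison. At 8 w 7 neutrophil genes rose in B6 mice, beside 21.2% of all probes. In DBA/2 mice the summed scaled signal of 9 neutrophil genes was 38946 to 39334 at 0 w, 123364 to 132964 at 4 w and then 259146 to 288823 at 8 w. That of 7 monocyte genes was 574 to 588, 1663 to 1729 and 1995 to 2085 in the same weeks. The monocyte sum thus rose at 4 w like Il4 but did not fall at 8 w. That of 9 T cell genes was 3903 to 3909, 3088 to 3216 and 2470.4 to 2511. The part of these shifts in the changes of Il4 and of the granulocyte genes was not tested.

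All calls on the members depend on how the background was removed. With the software's processed signal replaced by the mean signal corrected by normexp with an offset of 50, the Il4 change at 4 w was 0.54 (SE 0.41, limma adjusted p = 1), those of Cpa3 and Fcer1a were 0.40 and 0.30, and no member passed over the mean of 4 w and 8 w in either strain, with 0 also at an unadjusted p under 0.05. That Il4 was highest at 4 w in DBA/2 mice did not rest on scaling between arrays, since the spots of 4 w were the brightest before it, whereas the order of 9 w and 0 w did.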

How the data were processed

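RNA of blood leukocytes from single mice was labelled with Cy3 by the authors, hybridized to single-color Agilent arrays and read with Feature Extraction (version 9.5.3.1 per the labels; probe positions on mm8 per the file headers). The deposited scanner output gives for each spot a processed signal, an intensity from which the software had subtracted the background, with calls for outliers and for signals well above background. The deposited value table holds the same intensities averaged per probe and not scaled between arrays, with medians of 5.67 to 13.4. All 19 arrays were used. They carry 43379 spots that are not controls, for 41174 probes, and 33.9% to 51.4% of the spots were well above background, so that precision is limited by 2 or 1 mice in a group and by dim signals.

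Control and outlier spots were left out, the log2 signals of the spots of a probe were averaged, and each array was centred on its 75th percentile, taken over the 11533 probes that were measured above background on every array. The 2 arrays of replicate 2 of B6 mice at 0 w were averaged. Samples were grouped by strain and week as in their titles, which the replicate field of 2 samples contradicts. The methods name individual mice, but the labelling protocol in the labels names a pooled RNA of human origin. It was taken as not describing these mice, and p-values measure the spread between samples. Group means were estimated in R 4.3.3 by limma (version 3.58.1, with lmFit and eBayes; 8 residual and 1.37 prior degrees of freedom) on probes well above background in at least 2 samples, with Benjamini-Hochberg adjustment and a threshold of 0.05, since the study names no test for the arrays. On simulated data of 22936 genes, the DBA/2 comparison over 4 w and 8 w recovered 47 of 100 genes changed 2-fold and 68 of 100 changed 4-fold, with 8 false calls. The simulation changed only these genes and drew noise without slide effects, whereas 22.8% of all probes passed in the real comparison. Its figures therefore do not give the sensitivity of the real comparison. Correlations used permutation tests in scipy 1.17.1 (Python 3.11.15) and were adjusted over the 6 genes measured well enough, not over all 9 others. Where a group was below background on all its arrays, a fold is a lower bound, as described beside it.

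Every member was followed by the probe of its name with the highest mean signal. From 13 gene lists, at most the 3 largest changes among called genes are named, together with the 5 genes most like Il4 and like Mcpt8 and a few markers chosen after their values were seen (Cd200r3, Prss34, Kit, Il5, Il4ra, Cma1, Mcpt4 and others below the threshold or the background). Genes were named by accession for 24375 probes and otherwise by the name in the files. The members and lists were chosen with earlier results of these data known. Alternatives were the background correction, the scaling, the floor, the filters, the replicate number or slide as a block, each strain alone, and each sample left out.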

Additional observations from a re-analysis of the deposited data

Results flagged for a closer look

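In 2 members measured in both strains the change over the mean of 4 w and 8 w differed between the strains by the test of that difference (limma, adjusted p under the threshold). The DBA/2 change minus the B6 change was 1.65 on the log2 scale for Il4 (SE 0.12, adjusted p = 5.49e-05) and 0.96 for Cpa3 (SE 0.11, adjusted p = 6.67e-04), with a rise in DBA/2 mice of 0.99 and 0.52 and a fall in B6 mice of -0.66 and -0.44. For Mcpt8 it was 2.54 and for Prg2 2.84, fitted values that are no measure of size, because Prg2 was below background in all 8 B6 samples and Mcpt8 in 7 of them. Both passed the filter through DBA/2 samples, and without any filter Prg2 passed (limma, adjusted p = 0.0268) and Mcpt8 did not (adjusted p = 0.113). The B6 means at 0 w and 8 w come from the samples with strong hepatocyte transcripts, and the part of these in the differences was not tested.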

How the results depend on the processing

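Over the mean of 4 w and 8 w, 4 of 8 members passed in DBA/2 mice, 2 in B6 mice and 4 in the difference between the strains, with Prg2 in the first and Prg2 and Mcpt8 in the last admitted by the filter through DBA/2 samples. Of all probes, 22.8%, 15.0% and 13.2% passed in these comparisons. Among the 6 members measured in both strains the counts were 3, 2 and 2. With normexp in place of the processed signal, limma called 0, 0 and 0, with 0, 0 and 1 (Mcpt8) at an unadjusted p under 0.05. Of all probes, 584, 179 and 90 passed with normexp. The cause was not tested. Counts in the rest of this paragraph have no share over all probes beside them and describe the processing only. A change of 2-fold without a test gave 2 in DBA/2 mice and 1 in B6 mice. The unscaled value table gave 1 in B6 mice and 2 in the difference, and the fit without a filter 1 in B6 mice. The slide as a random block (added after seeing the data, correlation 0.46) gave 4 in B6 mice (Ccr3 and Mcpt8 more) and 5 in the difference. As a fixed block the slide left 1 sample of B6 mice at 8 w, so that no count is given for B6 mice or the difference. In DBA/2 mice both slide fits gave 6 (Ccr3 and Mcpt8 more). Leaving out single samples gave 3 to 5 in DBA/2 mice, 1 to 3 in B6 mice and 3 to 4 in the difference. In B6 mice, 1 was left without replicate 1 of 0 w and 3 passed without replicate 2 of 0 w. Without the B6 samples of 0 w and 8 w (added after seeing the data), 5 passed in DBA/2 mice, Mcpt8 being the one more.

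Samples of the same replicate number shared a scan day, and their deviations from the group means correlated between -0.01 and 0.46 over 28 pairs of groups, above 0.1 in 12, which does not establish a pairing. With the replicate block, 4, 2 and 4 members passed, as without it, while 6557 probes passed in DBA/2 mice in place of 5231.

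Over all 18 samples, r of Il4 with Mcpt8 was 0.53 (permutation test, adjusted p = 0.0352), with the strains as separate clusters. Spearman's rho was 0.49, r over the 10 group means 0.52, over values minus the slide mean 0.39, with the replicate block 0.53, and over the differences between replicates of 8 groups -0.32. Leaving out single samples gave 0.46 to 0.59. In the same pooled family Ccr3 had the highest r, 0.63 (adjusted p = 0.0265), and rho, 0.74 (permutation test, adjusted p = 0.00498), and Cpa3 and Fcer1a had r of 0.57 and 0.53. In DBA/2 mice alone it was 0.77, with 0.78 over 0 w to 8 w after removal of slide means (exact permutation test, adjusted p = 0.0562) and 0.73 to 0.85 without single samples. No correlation with Epx was computed, since it was below background on all arrays, nor one of Il4 with Mcpt8 in B6 mice.

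Of 38 called results of single members, 1102 of 1321 values under other settings kept direction and call, 205 kept the direction only, and 14 had the opposite sign. With the unscaled value table, Il4 at 9 w in DBA/2 mice was -0.13, Cpa3 over both weeks in B6 mice 0.085, and Il4 between the strains at 0 w 0.37. In B6 mice at 8 w, Ccr3 was 0.41, Cpa3 0.70, Il4 0.40 and Ms4a2 0.11. The median over all probes was 0.98 in that B6 comparison, 0.45 for Cpa3's, 0.89 between the strains at 0 w and -0.44 in DBA/2 mice at 9 w. Relative to these medians every one of the 7 values kept its direction. With normexp, Fcer1a at 9 w in B6 mice was -0.20. Between the strains at 0 w, Cpa3, Fcer1a and Mcpt8 were -0.0533, -0.22 and -0.20 with normexp, and at 4 w Ccr3, Fcer1a and Il4 were -0.13, -0.0227 and -0.0279, where the median over all probes was -0.44 and -0.53. Mcpt8 at 9 w in B6 mice was -1.20 without replicate 2 of 0 w and 1.21 without replicate 1.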
